A study of Homo sapiens with 2 samples.

Results

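The regions described here are the peaks of a Flag-Evi1Δ324 precipitation that lie in the interior of chromosomes 3, 5, 7 and 14, which held few peaks for their length. SKOV-3, an established human ovarian carcinoma line, was transfected with a plasmid in which the CMV promoter drives Flag-tagged Evi1Δ324. Cells were fixed 3 days later in formaldehyde at 1% for 10 minutes, and chromatin of 200 to 500 bp was precipitated with the Flag M2 antibody. Solexa sequencing gave 1 ChIP library, analysed here, and 1 input library of the same transfected cells, not analysed here. The design thus has no replicate, and it reports on a tagged protein expressed from a plasmid in cells of 1 line. The 4 chromosomes were chosen by their measured peak counts, so their low density is given as a description, with no test.

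A member is a peak of these chromosomes with its midpoint more than 5 Mb from the chromosome ends (on the acrocentric chromosome 14, only from the long-arm end). It lies in no centromeric, heterochromatic or stalk band and at least 1 Mb from the centromeric bands, all on hg18. Of 6943 peaks in the list, 859 were on the 4 chromosomes and 719 were members: 284 on chromosome 3, 260 on chromosome 5, 62 on chromosome 7 and 113 on chromosome 14. Of the others, 91 were near an end (36 on short arms and 55 on long arms) and 49 near a centromere or in heterochromatin. The comparison was with 5007 peaks chosen in the same way on chromosomes 1 to 22 and X without these 4. Intervals are exact 95% intervals for counting error in this 1 library, and they may be too narrow because peaks lie in groups.

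EVI1, the product of MECOM, is a nuclear zinc finger protein with separate groups of fingers that bind GATA-like and ETS-like motifs, and it recruits corepressors and dampens TGF-β signalling. The Δ324 form is a splice variant that lacks part of the first finger domain. MECOM lies in 3q26.2, a band gained in many ovarian carcinomas, and in myeloid leukaemia rearrangements between 3q26.2 and 3q21.3 bring the gene under an enhancer of GATA2. Genes are named below only as textbook contents of a band. No peak was assigned to a gene, and no base sequence is shown, because neither an annotation nor a sequence of hg18 was used.

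Chromosome 7 was the emptiest. Its interior had 0.434 peaks per Mb of placed sequence (interval 0.333 to 0.557), against 2.52 (2.45 to 2.59) over the 19 other chromosomes, a ratio of 0.172 (0.132 to 0.221). Chromosome 14 followed at 1.39 per Mb (1.15 to 1.67), then chromosome 5 at 1.58 (1.40 to 1.79) and chromosome 3 at 1.60 (1.42 to 1.79). Chromosomes 14, 5 and 3 thus stood at ratios of 0.552, 0.629 and 0.634, and their intervals overlapped one another but not that of chromosome 7. The nearest chromosomes that were not chosen were chromosome 15 at 1.94 per Mb (1.64 to 2.28), chromosome 10 at 2.01 and X at 2.03.

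The arms were unequal on chromosome 3. The short arm 3p held 78 members in 83.1 Mb, or 0.938 per Mb (0.742 to 1.17), and the long arm 3q held 206 in 94.7 Mb, or 2.18 per Mb (1.89 to 2.49). Against the 19 other chromosomes, 3p was at 0.372 (0.294 to 0.466) and 3q at 0.863 (0.747 to 0.992). With end limits of 10 Mb, 3q was at 0.892 (0.770 to 1.03), and with 5 Mb around centromeres left out it was at 0.874 (0.756 to 1.005), so that its interval then included 1, as it also did at 8 tags or more. Under the same alternatives 3p was at most at 0.376, and its upper bound stayed below 0.473. On chromosome 7 the arms were alike in value, 0.429 per Mb on 7p (0.269 to 0.649) and 0.437 on 7q (0.312 to 0.596). On chromosome 5, the short arm had 1.93 per Mb (1.53 to 2.42) and the long arm 1.47 (1.27 to 1.70), with overlapping intervals. Among 41 chromosome arms with at least 5 Mb of placed interior sequence, 7p, 7q and 3p had the lowest densities, in that order. The arm 14q was at place 6 from the lowest, 5q at 7, 5p at 11 and 3q at 16.

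**Figure D1:**
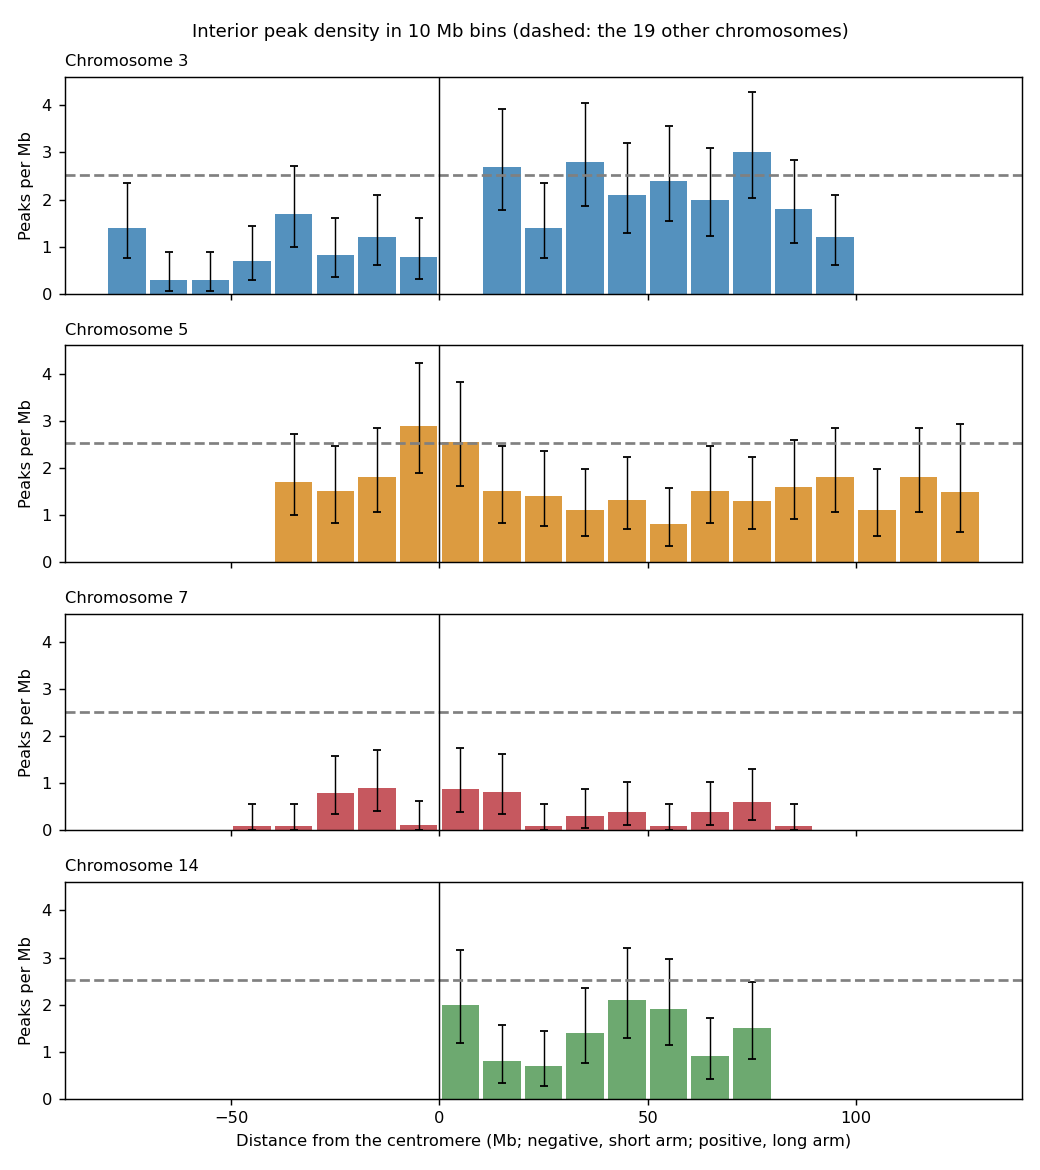
Interior peaks per Mb (vertical axis) in bins of 10 Mb counted from the centromere (horizontal axis, Mb), for each of the 4 chromosomes. Bars are 1 bin each with exact Poisson 95% intervals, the dashed line is the density of the 19 other chromosomes (2.52), bins with under 5 Mb of placed interior sequence are not drawn, and the heterochromatic start of 3q was left out. Every bin of chromosome 7 is below 1 peak per Mb, and the emptiest bins of chromosome 3 are on its short arm.

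In bins of 10 Mb counted outward from the centromere, 51 of 56 bins on the 4 chromosomes (91.1%) were below the mean density of the other chromosomes, and 27 (48.2%) were below 0.5 times it. On the 19 other chromosomes these shares were 53.8% and 7.04% of 199 bins. All 14 bins of chromosome 7 were below 0.5 times that density. Its fullest bins were in 7p14.2 to 7p12.3 (9 peaks in 10 Mb), 7q11.21 to 7q11.22 (8 in 9 Mb) and 7q11.22 to 7q21.11 (8 in 9.75 Mb). Of the others, 6 bins had a single peak each, 3 on each arm.

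On chromosome 3, the sparsest bins were in 3p24.3 to 3p24.1 and in 3p24.1 to 3p22.1. Each held 3 peaks, or 0.300 per Mb (0.0619 to 0.877), where 25.2 would lie at the density of the other chromosomes, and none of the 6 peaks had more than 5 tags. The adjoining bin of 3p22.1 to 3p21.31 held 7. By contrast, 3 bins of 3q were above the density of the other chromosomes: 3q26.1 to 3q26.31 (30 peaks), 3q13.33 to 3q22.1 (28) and 3q12.3 to 3q13.2 (27). Their intervals all included that density, and the first of these bins contains the 17 members of 3q26.2.

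Chromosome 5 was fullest on either side of its centromere. The bin of 5p13.2 to 5p12 held 26 peaks in 9 Mb (2.89 per Mb, 1.89 to 4.23), and that of 5q11.2 to 5q12.1 held 23 in 9 Mb (2.56, 1.62 to 3.83). All 15 remaining bins of this chromosome were lower, between 0.800 per Mb in 5q21.1 to 5q22.1 and 1.8 per Mb. On chromosome 14 the fullest bins were in 14q23.1 to 14q24.1 (21 peaks), 14q24.1 to 14q31.1 (19) and, next to the centromere, 14q11.2 to 14q12 (18 in 9 Mb). The sparsest lay in 14q21.1 to 14q22.1 (7 peaks), 14q12 to 14q21.1 (8) and 14q31.1 to 14q32.11 (9).

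No common gradient ran along the arms. With each arm divided into 3 equal lengths of placed sequence, the parts nearest the centromere held 256 members in all (1.36 per Mb, 1.20 to 1.53), the middle parts 232 (1.23, 1.08 to 1.40) and the outer parts 231 (1.22, 1.07 to 1.39). On 3p the parts were nearly even, with 27, 26 and 25 members from the centromere outward. On 3q they held 72, 70 and 64, on 5p 32, 20 and 25, and on 5q 65, 50 and 68. On 7p the outer part had 3 members, the inner part 10 and the middle part 9. On 7q the inner part had 18, the middle part 9 and the outer part 13, so the lowest part of the arm was not the same on both sides of the centromere. On 14q the middle part was the fullest, with 48 against 32 and 33. In value, the inner part was the fullest on all other arms except 5q.

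Peak-free stretches were measured as placed sequence between neighbouring midpoints within an arm. The longest was on 7p, 10.4 Mb from 7p21.3 to 7p15.3 (chromosome 7, 12191914 to 22589669), where 26 peaks would lie at the density of the other chromosomes and 4.52 at that of chromosome 7 itself. Chromosome 7 also had 8.84 Mb from 7q31.1 to 7q31.32 (112309794 to 121150907) and 8.18 Mb from 7q21.2 to 7q22.1 (91714189 to 99896344). Over the whole chromosome, 9 stretches of 5 Mb or more took up 46.9% of the placed interior. On the 19 other chromosomes such stretches took up 1.56%.

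On chromosome 3, a pair of stretches met at a single peak in 3p23: 7.22 Mb up to 3p22.2 (31190601 to 38414552) and 7.22 Mb from 3p24.2 (23972144 to 31190600). Another, of 5.61 Mb, ran from 3p25.1 to 3p24.3 (13674630 to 19285298). All stretches of 5 Mb or more on chromosome 3 were these 3, and none was on 3q. Chromosome 5 had no stretch that long. Its longest was 3.70 Mb from 5q23.3 to 5q31.1 (128547566 to 132252559), followed by 3.54 Mb from 5q14.3 to 5q15 and 3.37 Mb from 5q21.2 to 5q21.3. The longest on chromosome 14 was 3.91 Mb from 14q21.2 to 14q21.3 (43064915 to 46977819), followed by 3.41 Mb from 14q13.3 to 14q21.1 and 3.24 Mb within 14q32.2. Long stretches were not limited to these chromosomes: the longest of the other 19 ranged from 1.05 to 9.85 Mb (median 2.63), the last on chromosome 1.

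Stretches were also set against each chromosome's own mean spacing, a measure that grows with the number of peaks. The longest of chromosome 7 was 4.52 times its mean spacing, compared with 5.44 on chromosome 14, 5.87 on chromosome 5 and 11.5 on chromosome 3. The 19 other chromosomes had 3.98 to 22.6 (median 5.96). Chromosome 3 was thus the only one of the 4 above that median. Its longest stretch lay on 3p, at 0.938 peaks per Mb, but the mean spacing also counts 3q, at 2.18.

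**Figure D2:**
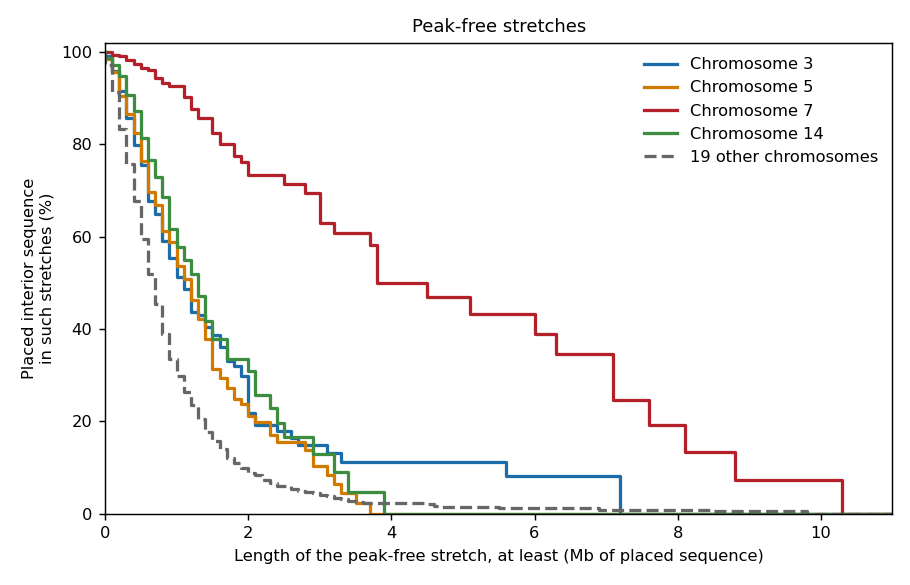
Share of the placed interior sequence (vertical axis, %) that lies in peak-free stretches of at least the length on the horizontal axis (Mb), for each of the 4 chromosomes and for the 19 other chromosomes pooled (dashed). At 5 Mb the line of chromosome 7 is at 46.9% and that of chromosome 3 at 11.3%, while chromosomes 5 and 14 have reached 0.

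Whole bands were empty too. Of 90 bands with at least 3 Mb of placed interior sequence on the 4 chromosomes, 7 (7.78%) held no member, compared with 2 of 309 (0.647%) elsewhere. More empty bands are to be expected on chromosomes chosen for few peaks, and no expected number was computed. On chromosome 7, 5 of 23 bands were empty. These were 7q21.3 (5.30 Mb), the band of the homeobox gene DLX5; 7p21.1 (4.30 Mb), that of TWIST1, a factor of epithelial-mesenchymal transition; 7q31.31 (3.70 Mb); 7p15.2 (3.10 Mb), that of the developmental regulator HOXA9; and 7p12.1 (3 Mb). On chromosome 3 the empty bands were 3p24.1, which holds the TGF-β receptor gene TGFBR2, and 3p22.3, of 4.40 Mb each. At counts of 0 the upper limits on chromosome 7 ran from 0.696 peaks per Mb for 7q21.3 to 1.23 for 7p12.1. All of them were above the 0.434 per Mb of chromosome 7 itself, so its empty bands are not set apart from the rest of it. For 3p24.1 and 3p22.3 the upper limit was 0.838, compared with 0.938 per Mb on 3p. Absence from a list with a minimum of 5 tags does not show that the protein was absent.

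The densest bands of that size were also recorded. On chromosome 3, 3q26.2 had 17 members in 3.30 Mb (5.15 per Mb, 3.00 to 8.25), followed by 3q13.11 with 11 (3.24 per Mb) and 3q23 with 12 (3.00 per Mb). On chromosome 5 they were 5p13.1 (12 members), 5q11.2 (21) and 5q31.2 (10), at 3.08, 2.84 and 2.78 per Mb. On chromosome 14, 14q11.2 had 9 members, 14q24.3, the band of the AP-1 gene FOS, had 13 and 14q23.3 had 7, at 2.33 to 2.57 per Mb. The densest of chromosome 7 were still below the mean of the other chromosomes: 7q11.21 at 1.25 per Mb (5 members), 7p13 at 1.21 (4) and 7q11.23, the band of the elastin gene ELN, at 1.12 (6). The upper bounds of these 3 intervals were 2.44 to 3.10.

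Members were denser in Giemsa-negative bands, the pale and gene-rich part of a chromosome, than in dark ones. Over the 4 chromosomes, Giemsa-negative bands had 345 members (1.46 per Mb) and the darkest classes, positive 75 and positive 100, had 198 together (0.914 per Mb), a ratio of 1.60 (1.34 to 1.91). The same ratio was 1.41 (1.32 to 1.51) over the other chromosomes, an overlapping interval. It was 1.29 on chromosome 3 (0.976 to 1.72), 1.64 on chromosome 5 (1.20 to 2.25), 1.67 on chromosome 14 (1.06 to 2.65) and 2.75 on chromosome 7 (1.46 to 5.49). The value for chromosome 7 rests on 39 and 14 peaks, and all 4 intervals overlapped. Pooled, the 4 chromosomes were below the others within each Giemsa class. Their ratios were 0.509 in negative bands (0.454 to 0.570), 0.670, 0.572 and 0.464 in the classes between, and 0.435 in positive 100 (0.349 to 0.536). For single chromosomes some intervals included the density of the others, as in positive 75 on chromosome 14 (1.85 per Mb, 0.888 to 3.41, against 2.07). Dark bands made up 38.3% of the placed length of the 4, against 34.1% elsewhere. That share ranged from 34.7% on chromosome 5 to 43.5% on chromosome 7, and its part in the lower density was not tested.

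**Figure D3:**
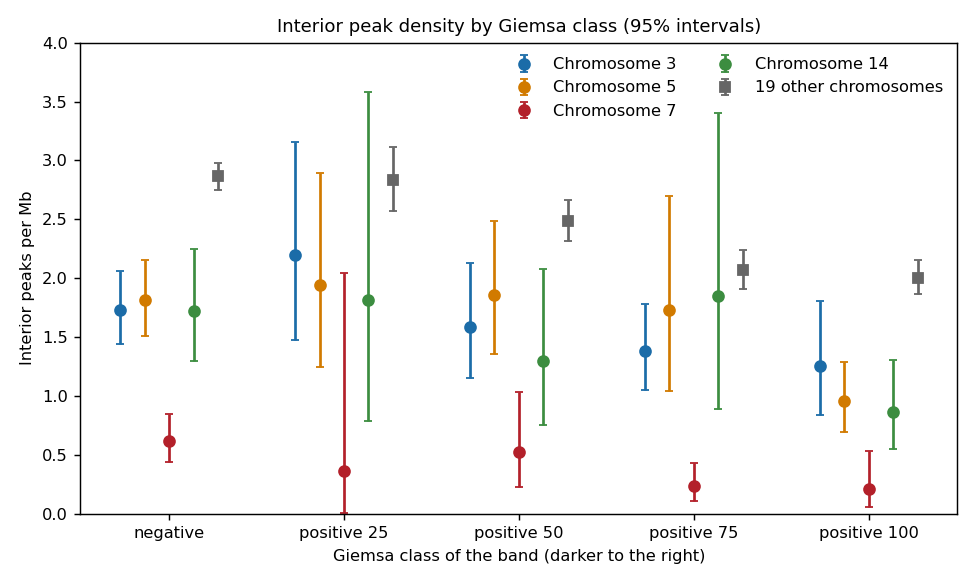
Interior peaks per Mb (vertical axis) in the 5 Giemsa classes (horizontal axis, from negative to darkest) on the 4 chromosomes (circles) and the 19 others pooled (squares), with exact Poisson 95% intervals. Chromosome 7 is the lowest point in every class, and the squares lie above all circles in every class.

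Members rested on few tags, read here as the sequenced fragments counted in a peak. Exactly 5 tags, the minimum of the list, supported 498 of 719 members (69.3%, 65.7 to 72.6), compared with 62.9% (61.5 to 64.2) of the peaks of the other chromosomes. At least 8 tags supported 44 members (6.12%, 4.48 to 8.13), compared with 10.5% (9.65 to 11.4). The share was 20.5% (17.5 to 23.6) on the gene-dense chromosomes 16, 17, 19 and 22, 9.36% on the remaining autosomes and 1.10% (0.228 to 3.19) on X. Single autosomes were lower than the members, among them chromosome 13 at 1.09%, chromosome 21 at 4.23%, chromosome 15 at 4.79% and chromosome 6 at 5.61%. By chromosome, 23 of the 44 were on chromosome 3, 13 on chromosome 5, 5 on chromosome 14 and 3 on chromosome 7.

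The deepest members were of another kind. In 3q26.2, 7 peaks had 221 to 707 tags and folds of at most 2.34. The fold is a value of the list that was read here as a ratio of a peak over a background. They held 2637 tags, which is 39.3% of the tags of all members and 62.7% of those of chromosome 3. The deepest (chromosome 3, 170315853 to 170316261) had 707 tags in 409 bp, and 5 of the 7 formed a group of 17.4 kb (170285368 to 170302762). This band holds MECOM, the gene whose cDNA the plasmid carries; the part of plasmid DNA in these tags was not tested. Without 3q26.2, members with at least 8 tags were 35 of 702 (4.99%, 3.50 to 6.87), below the other chromosomes by a wider margin. A single other member exceeded 20 tags, in 5q13.2 (chromosome 5, 71182487 to 71182707), with 108 tags in 221 bp and a fold of 3.02.

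Outside these, no member had more than 17 tags. On chromosome 3, a pair of peaks in 3q21.2 within 0.511 kb (125638298 to 125638808) had 11 and 17 tags, with folds of 10.85 to 12.11. On chromosome 5, a peak in 5q31.2 (137907130 to 137907290), the band of the immediate early gene EGR1, had 13 tags and a fold of 26.18, and one in 5q14.3 (82805729 to 82805961) had 12 tags and a fold of 24.5. On chromosome 14 the most tags were 14, in 14q24.3 (72994046 to 72994332), with a fold of 8.21, then 12 in 14q23.1 (61114315 to 61114553) and 10 in 14q12 (31615404 to 31615621). On chromosome 7 a peak in 7q11.22 (66577934 to 66578100) had 12 tags and a fold of 20.3. Another of that band (68165392 to 68165454) had 10 tags in 63 bp and a fold of 7.75, and one in 7q34, the band of the kinase gene BRAF, had 8 tags and a fold of 14.1 (140683374 to 140683488). No member of chromosome 7 had more than 12 tags.

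The highest fold was at 3q21.3, the leukaemia partner band of MECOM, which holds GATA2 and RPN1. There 3 peaks lay within 0.638 kb (chromosome 3, 129532191 to 129532828), with 29 tags in all. The middle one (129532402 to 129532613) had a fold of 34.3 and 15 tags in 212 bp. It was the only member with a fold of 30 or more (0.139% of members), compared with 29 peaks (0.579%) of the other interiors. The next folds were 29.4 in 3p22.1 (40469801 to 40469959, 8 tags), inside the sparse part of 3p, and 29.4 in 5q35.1 (168926820 to 168926907, 6 tags). The highest was 24.5 on chromosome 7, shared by 8 peaks of 5 or 6 tags, among them 1 in 7p21.3 (12191858 to 12191969) at the edge of the longest peak-free stretch, and 25 on chromosome 14, in 14q23.1 (60517606 to 60517776, 8 tags). The folds of 24.5, 29.4 and 34.3 are among the fixed values described below, and no peak of 5 tags in the list exceeded 24.5. The order of folds thus partly follows these fixed values.

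Widths were close to those elsewhere. The median was 125 bp (quartiles 110 and 134, range 55 to 409), and it was 125 bp in the interiors of the other chromosomes as well (quartiles 111 and 136). Medians by chromosome were 125 on chromosome 3, 123 on chromosome 5, 126.5 on chromosome 7 and 125 on chromosome 14. Width follows tags, so it was compared at equal tags. At 5 tags the median was 118 bp (116 to 120) for members and 119 (118 to 119) elsewhere, at 6 to 7 tags it was 137 bp in both, and at 8 or more it was 208 and 206. The 46 peaks of 5 tags on chromosome 7 had a median of 125.5 bp, above the 111 to 121 of the 19 other chromosomes, but its interval (112 to 129) covered most of that range. All 3 members over 300 bp were in 3q26.2, the widest of them at 409 bp.

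The folds of the members fell more often on a few fixed values. The commonest fold in the list, 14.70, and others such as 19.61, 24.51, 29.41 and 34.31 are whole multiples of a step of 4.9013. The fold per tag never exceeded that step in any peak of the list. Peaks with such a fold are called whole-step peaks here. Peaks of 1 background and different heights would give such folds, but heights and backgrounds are not in the values used, and this reading was not tested. Among peaks of exactly 5 tags, 257 of 498 members (51.6%, 47.1 to 56.1) were whole-step peaks, compared with 1129 of 3149 (35.9%, 34.2 to 37.6) on the other chromosomes. The shares were 82.6% on chromosome 7 (38 of 46, 68.6 to 92.2), 56.4% on chromosome 14 (44.7 to 67.6), 47.3% on chromosome 3 (39.96 to 54.7) and 46.3% on chromosome 5 (39.0 to 53.7). Over the 19 others they ranged from 17.5 to 50.4%, with chromosomes 13, 15 and X at 50.4, 46.7 and 45.8%. Only the interval of chromosome 7 lay wholly above that range. Without chromosome 7 the members were at 48.5% (43.8 to 53.2). Of the 257, 123 lay at 3 steps, 111 at 4 and 23 at 5, and of the 1129 elsewhere 569, 486 and 74.

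Arms of 1 chromosome could differ in this share. The short arm of chromosome 3 was at 67.2% (39 of 58, 53.7 to 79.0) and the long arm at 38.3% (49 of 128, 29.8 to 47.3). All 6 peaks of the 2 sparsest bins of 3p were whole-step peaks. Both arms of chromosome 7 were high, 81.3% on 7p (13 of 16) and 83.3% on 7q (25 of 30), while 5q was at 50.4%, 5p at 36.4% and 14q at 56.4%. Of the 41 arms, 7q, 7p and 3p had the highest shares. In value, a low density did not always go with a high share. The arm 12p, at place 5 from the lowest density (1.36 per Mb), was at 8.33%, near the bottom of the arms. It held only 37 peaks of any tag count and no interval was computed for its value, so this exception rests on few peaks. Across the 23 chromosomes, Spearman's rho between density and this share was -0.780, and it was -0.630 over the 19 others alone. This is a description across chromosomes of 1 library, which share its depth.

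**Figure D4:**
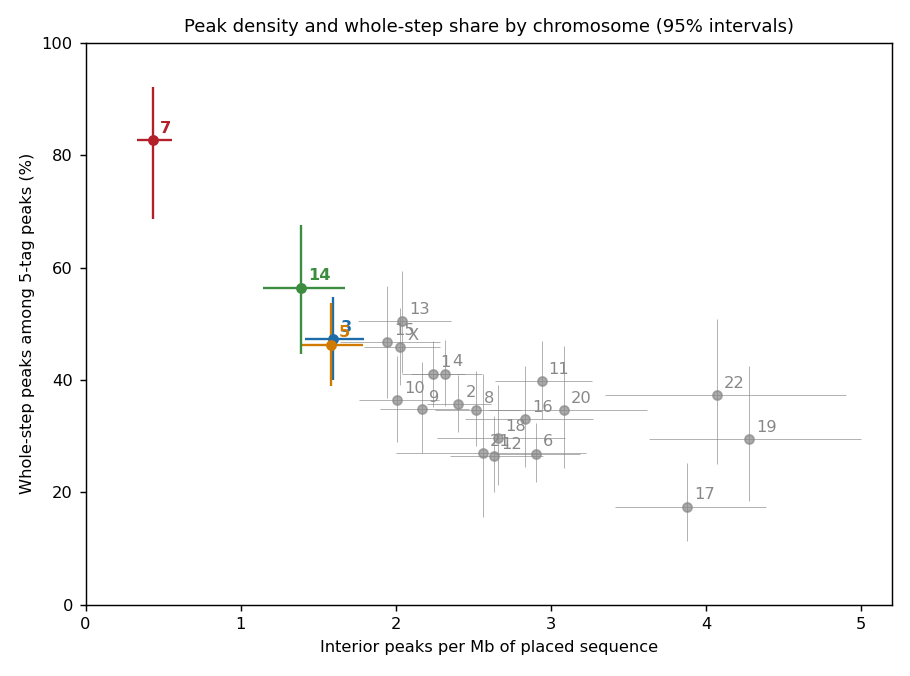
Interior peaks per Mb (horizontal axis) and share of whole-step peaks among 5-tag peaks (vertical axis, %) for chromosomes 1 to 22 and X, each point a chromosome with exact 95% intervals in both directions. Chromosome 7 is alone at the upper left (0.434 per Mb, 82.6%), chromosomes 14, 3 and 5 come next in density, and chromosome 17 has the lowest share (17.5%).

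The share was higher in value in each Giemsa class. In Giemsa-negative bands it was 51.3% of 224 members of 5 tags, compared with 35.5% of 1435 peaks elsewhere. In the positive 25 class it was 44.2% (29.1 to 60.1) compared with 28.2% (22.5 to 34.4), and in positive 50 it was 43.7% (33.1 to 54.7) compared with 33.9% (29.8 to 38.3), both with overlapping intervals. In positive 75 it was 58.8% (46.2 to 70.6) compared with 35.5% (30.9 to 40.3). In positive 100 bands it was 59.2% (47.3 to 70.4) compared with 41.7% (37.6 to 45.9). At 6 tags members were at 31.8% (24.0 to 40.5) and the others at 18.4% (16.1 to 20.9). At 7 tags the values were 20% and 14.9%, and at 8 or more 18.2 and 14.5%, with overlapping intervals.

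Taken by class, the low density was unequal. For whole-step peaks of 5 tags, the intervals of chromosomes 3, 5 and 14 included 1, at ratios of 0.871 (0.693 to 1.08), 0.933 (0.741 to 1.16) and 0.953 (0.688 to 1.29). For 5-tag peaks at any other fold, the ratios were 0.542 (0.438 to 0.664), 0.605 (0.491 to 0.740) and 0.411 (0.284 to 0.577). Chromosome 7 was low in both, at 0.468 (0.330 to 0.647) and 0.0551 (0.0238 to 0.109), the latter from 8 peaks. Divided by step, the whole-step ratios of chromosome 7 were 0.538 (0.335 to 0.823) at 3 steps, 0.286 (0.136 to 0.531) at 4 and 1.13 (0.401 to 2.57) at 5, the last from 6 peaks. At 5 steps chromosomes 3, 5 and 14 were at 1.36, 0.818 and 0.991, from 9, 5 and 3 peaks. At 8 tags or more, the ratios were 0.489 on chromosome 3, 0.300 on chromosome 5, 0.233 on chromosome 14 and 0.0795 (0.0163 to 0.234) on chromosome 7. Without the peaks of 3q26.2, but with the length of that band kept, chromosome 3 was at 0.298 (0.162 to 0.504). Such inequality was not particular to the 4 chromosomes. Against the remaining unchosen chromosomes, X was at 1.33 (1.07 to 1.63) for whole-step peaks of 5 tags and 0.850 (0.699 to 1.02) for other 5-tag peaks. At 8 tags or more X was at 0.0794 (0.0163 to 0.233), near the value of chromosome 7. The whole-step share and the density are thus not independent measures, and the part of whole-step peaks in the low density was not tested.

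**Figure D5:**
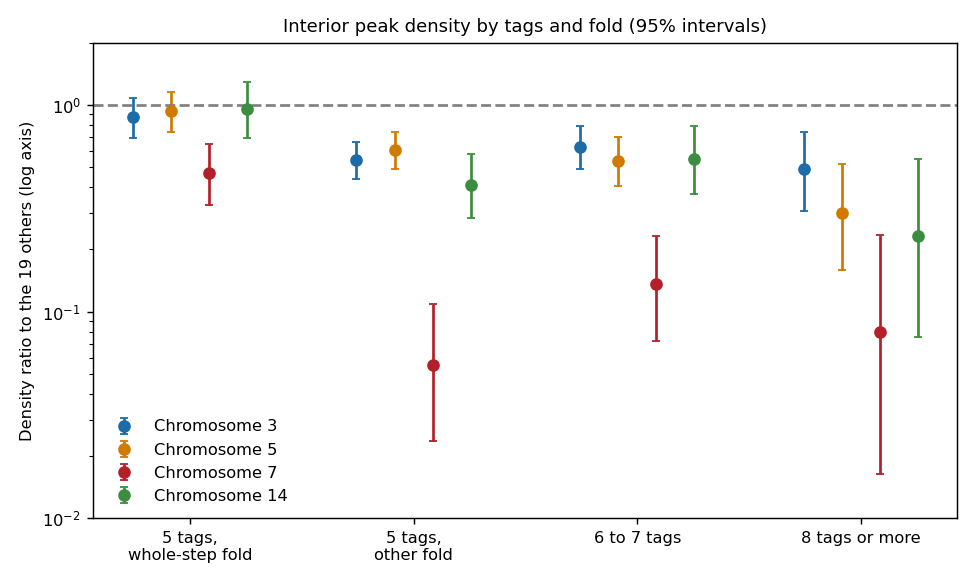
Ratio of interior peak density to that of the 19 other chromosomes (vertical axis, log scale) in 4 classes of tags and fold (horizontal axis), for each of the 4 chromosomes, with exact 95% intervals and the dashed line at equal density. For whole-step peaks of 5 tags the intervals of chromosomes 3, 5 and 14 include 1, and for 5-tag peaks at any other fold all 4 chromosomes are below 1.

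Near neighbours were few. Each peak was compared only with the next one at a higher position, so a pair counts once. The next peak lay within 10 kb for 29 of 719 members (4.03%, 2.72 to 5.74). This compares with 7.25% (6.55 to 8.003) of the other interior peaks over all 19 chromosomes. That share was 13.96% (11.5 to 16.7) on the gene-dense chromosomes, 6.41% (5.67 to 7.21) on the remaining autosomes and 2.21% (0.814 to 4.74) on X, so the members were not the lowest. The shares are not corrected for density, and its part in them was not tested. On chromosome 7 none of the 62 members had one (upper limit 5.78%). There were 25 groups of 2 or more members with steps of at most 10 kb, 13 of them on chromosome 3. Only groups in 3q21.3 and 3q26.2 had more than 2 members. The 25 groups held 54 members, so 54 of 719 had another member within 10 kb on either side.

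The values on either side of the selection limits were recorded once. The 7 members nearest to an end limit had 5 to 7 tags and folds of 12.1 to 24.5, and the 7 peaks just outside had 5 to 7 tags and folds of 12.1 to 19.6. At the centromeric and heterochromatic limits the 7 nearest members had 5 to 8 tags, and the 7 peaks outside had 5 to 13, the highest in 7p11.1.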

How the data were processed

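The authors deposited 1 headerless peak list for the ChIP library, on hg18 per the submitters' processing notes. Which aligner and peak caller were used is not given in the sources used here. In the deposited list the fourth column is taken as the fold, or ratio, of a peak over an undefined background, and the fifth as an unscaled tag count, minimum 5. Both readings come from the values. Sequencing depth is unknown from the list, which holds 76115 tags.

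Midpoints were placed on hg18 bands, contigs and lengths from circlize 0.4.16, IRanges 2.36.0 and GenomeInfoDb 1.38.1 (R 4.3.3), and computed with Python 3.11.15, pandas 2.3.3 and scipy 1.17.1. Density is peaks per Mb of placed interior sequence. Intervals are exact: Poisson for counts, Clopper-Pearson for shares, conditional binomial for ratios of densities, and order statistics for medians. The step of 4.9013 was fitted to the folds, with a tolerance of 0.0051. No p-value was computed, since peaks of 1 library are not replicates. The density ratio and share intervals were checked on data drawn with known values, and merging and interval subtraction on known input. The other measures were not checked in this way.

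The regions named are, per chromosome, the 5 members with the most tags, the 5 with the highest fold, the 3 longest stretches, the 3 densest and 3 sparsest bins, the empty and 3 densest bands, and groups of 3 or more. Long runs of tied or lesser ones are summarised. Members, lists and comparisons were chosen with earlier results of these data known, and whole-step peaks were defined after seeing the folds. All 11 genes named for a band matched RefSeq of GRCh38.p14 by symbol only. Sequences of hg18 were not used here.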

Additional observations from a re-analysis of the deposited data

How the results depend on the processing

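Of 124 recomputed values, 22 left the 95% interval of the value in the text (for the longest stretch, moved by over 1.5 times). The alternatives on arms, on whole-step peaks and on chromosome 3 without 3q26.2 were added after seeing the data. End limits of 2 and 10 Mb, 5 Mb around centromeres, merging, gaps and a comparison without chromosomes 16, 17, 19 and 22 moved none of the values. All larger moves came from requiring more tags, a fold above the median, another distance or another tag class. With 8 tags or more the density ratios of chromosomes 3, 5, 7 and 14 were 0.489, 0.300, 0.0795 and 0.233. At that limit the median width was 208 bp and the Giemsa ratio 1.93 (interval 0.868 to 4.58). The longest stretch was then 72.2 Mb and the share with the next peak within 10 kb 13.6%. With 20 tags or more the ratios were 1.10, 0.171, 0 and 0. All 7 such peaks of chromosome 3 were in 3q26.2. With a fold above the median the width was 117 bp and the longest stretch 19.7 Mb. The share with the next peak near was 1.95% within 2 kb and 10.99% within 50 kb, and the share of whole-step peaks was 28.8% at 6 to 7 tags. Fewer peaks and other distances give some of these moves by construction; otherwise the cause was not tested.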
